A study of Saccharomyces cerevisiae with 10 samples.

Results

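The 10 genes described here are MSN2 (YMR037C) and MSN4 (YKL062W), which encode the transcription factors of the general stress response of budding yeast, and 8 genes that this response is known to switch on, namely HSP12 (YFL014W), CTT1 (YGR088W), GRE1 (YPL223C), ALD2 (YMR170C), ALD3 (YMR169C), GAD1 (YMR250W), SPI1 (YER150W) and DDR48 (YMR173W). They were chosen by name, as 10 of the 6292 open reading frames in the deposited table, and were followed gene by gene in hours 1 and 2 against hours 3 to 10. Wild-type diploid cells of Saccharomyces cerevisiae had grown in the yeast form in liquid SHAD, which has ample glucose and ammonium, and were then put on SLAD agar, which is low in ammonium and on which diploids grow as filaments. One array was made for each hour from 1 to 10, so 2 arrays make up the early set and 8 the later set, and each array set total RNA of filamentous-form cells of that hour beside RNA of yeast-form cells. Medium, agar, growth form and time since transfer differ together between the channels and cannot be told apart. The sources used here do not give the strain background, nor say whether the hours came from separate cultures or the yeast-form RNA from 1 extract. The p-values therefore measure the scatter between single arrays, which may be technical. That scatter also holds any real change between the hours within a set.

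Values are log2 ratios, likely filamentous form over yeast form, after subtracting each array's median. The labels do not state the direction. It was taken from the channel order and the positive ratios of the nitrogen-limitation genes DAL80 and GAP1, the genes checked for this. They were at 3.03 ± 1.16 (SD over hours, n = 10) and 1.75 ± 0.33. A ratio of 0 therefore stands for the median gene of an array. In RNA of a whole population, fewer cells that express a gene and less of its RNA per cell cannot be told apart.

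Msn2 and Msn4 are related zinc finger proteins that bind the stress response element, a short motif found upstream of many stress genes. In cells growing on ample glucose, protein kinase A keeps them inactive in the cytoplasm, and on stress or loss of nutrients they enter the nucleus and raise transcription of chaperones, antioxidant enzymes and carbohydrate-storage genes. Their activity is set largely by where the proteins are, which an RNA ratio does not measure.

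All 100 values of the 10 genes were usable, none being listed at 0, and all 10 genes passed the filter on missing values. Arrays resembled each other more within odd or within even hours than across these classes. The mean Pearson's r across genes was 0.59 for the 20 pairs within a class and 0.43 for the 25 pairs across them. The labels name no such batch. The early and later sets hold odd and even hours in equal shares, and differences computed inside each of these classes are given beside the results. Array medians before centring ran from 0.12 to 0.39, and without centring the median of all genes shifts to 0.37 in each set of hours. On that scale a gene can pass as higher than 0 without lying above the median gene. Ratios do not show whether a gene is expressed. Of the haploid-specific genes that diploids keep off, 12 of 15 were tested. In hours 1 and 2, 0 of these were higher than 0 and 1 lower in limma, where 18.6% of all genes were called in either direction. In hours 3 to 10, 1 was higher and 1 lower, where 40.8% of all genes were called. Of 6 meiosis genes 5 were tested, with 0 called in hours 1 and 2 and 1 lower in hours 3 to 10.

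The main comparison asked whether these stress genes stood higher in the first 2 hours on SLAD than later. DDR48, SPI1, ALD3 and GAD1 had the widest gaps, with early means 2.43, 2.24, 1.36 and 1.49 log2 units above the later means, while HSP12 differed by 0.02 and GRE1 and ALD2 had early means below the later ones. No member passed limma's test of this difference after Benjamini-Hochberg adjustment over all genes, and neither did any other gene (0 of 5773, 0% of genes tested). At an unadjusted p under 0.05 there were 713 genes (12.4%), among them 4 of the 10 members, 3 of them higher early (5.06% of all genes) and 1 lower (7.29%). The early mean exceeded the later mean in 8 of the 10 members, against 48.2% of all genes, and the members' median difference was 0.65 against -0.02 for all genes. Both values rested largely on hour 1. Without hour 1 the early value was higher in 5 of the 10 members, with a median difference of -0.09 against -0.05 for all genes. Without hour 2 it was higher in 8, with a median difference of 1.50 against -0.04 for all genes.

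**Figure D1:**
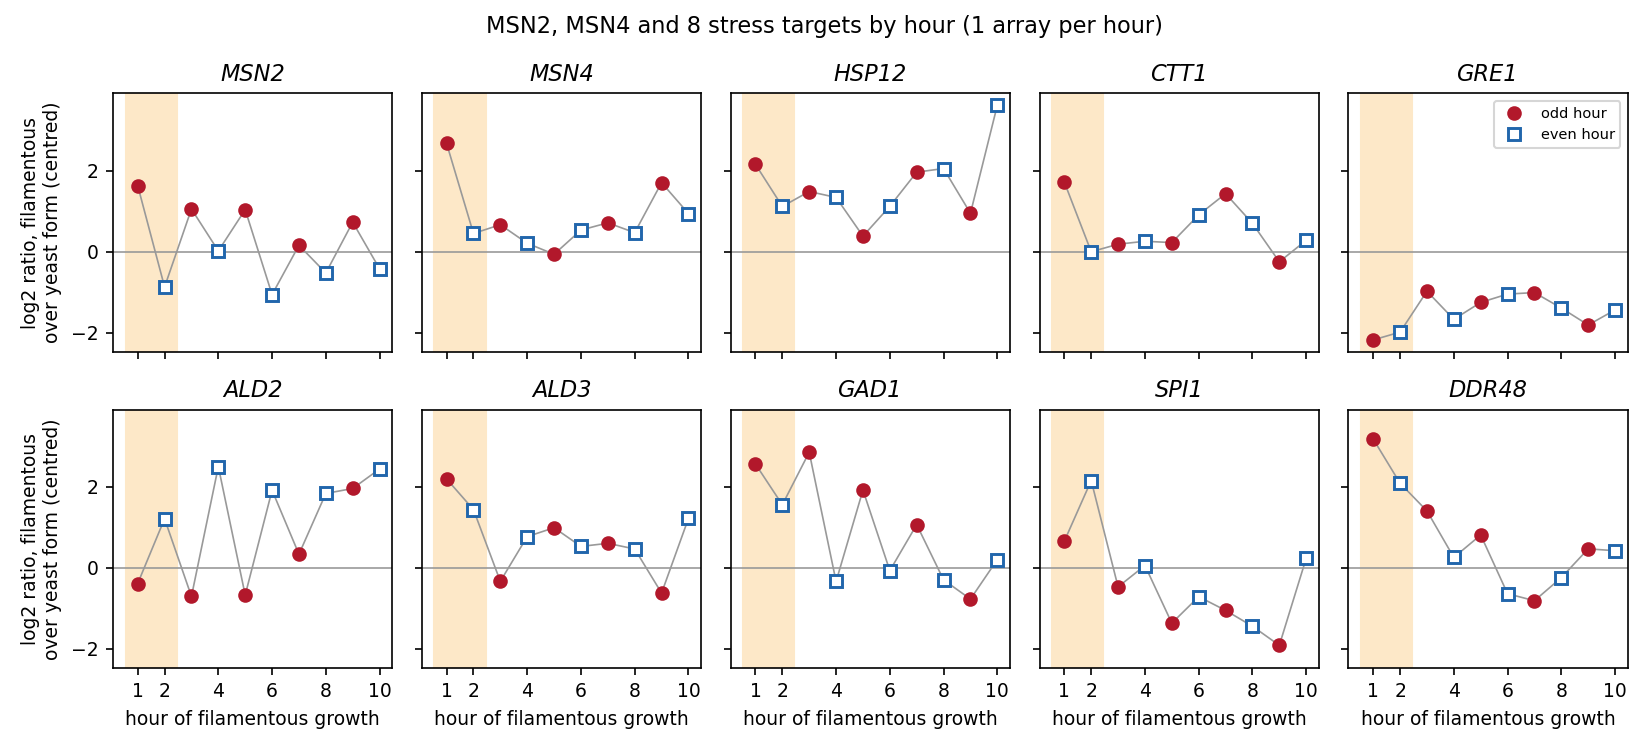
Centred log2 ratio (filamentous over yeast form, vertical axes) of each of the 10 genes at hours 1 to 10 (horizontal axes), 1 array per hour, with odd hours as filled circles, even hours as open squares and hours 1 and 2 shaded. DDR48 runs from 3.18 at hour 1 to below 0 at hours 6 to 8, GRE1 lies below 0 on all 10 arrays, HSP12 above 0 on all 10, and MSN2 alternates between odd and even hours, as ALD2 does up to hour 8.

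The regulators come first. MSN4 had a ratio of 2.67 at hour 1 and 0.45 at hour 2. In hours 3 to 10 its lowest value was -0.07, its median 0.60 and its highest 1.70, at hour 9. Hour 1 thus stood above every later hour, while hour 2 lay within their range. Each SE here comes from a variance per gene pooled over both sets of hours, not from the set's own arrays alone. The mean of hours 1 and 2, 1.56 ± 0.49 (SE, n = 2), differed from 0 in limma (adjusted p = 0.048), a 2.95-fold higher ratio than the median gene. That call was lost under 18 of 28 alternatives, among them leaving out hour 1, which left 0.45 (adjusted p = 0.67), and leaving out any of hours 3, 4, 5, 6, 7, 8 or 10. The later mean was 0.64 ± 0.24 (n = 8) and did not pass (adjusted p = 0.055), but passed under 11 of 28 alternatives, such as without centring (adjusted p = 0.0091) and without hour 1, 2 or 5. The difference between the sets, 0.92 ± 0.55, did not pass either (adjusted p = 0.56), and its 95% interval ran from -0.29 to 2.12.

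MSN2, the partner gene, alternated from array to array. Its ratios at odd hours 1, 3, 5, 7 and 9 were 1.63, 1.05, 1.04, 0.16 and 0.73. At even hours 2, 4, 6, 8 and 10 they were -0.87, 0.02, -1.06, -0.53 and -0.43. Every odd hour lay above every even hour, a pattern held by 5.4% of all genes tested, and the odd and even means were 0.92 and -0.57. Hour 1 lay above the later range and hour 2 near its low end, and their mean of 0.38 ± 0.61 did not pass in limma (adjusted p = 0.75). The later mean was 0.12 ± 0.31 (adjusted p = 0.78) and the difference 0.26 ± 0.68 (adjusted p = 0.94), with an interval from -1.25 to 1.76. Within odd hours, hour 1 was 0.89 above the later mean, and within even hours, hour 2 was 0.37 below it (-0.37). At this precision a change in MSN2 of over 2-fold in either direction could not be told from none.

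Among the targets, DDR48, a gene named for its response to DNA damage, had the widest gap. From hour 1 to hour 10 its ratios were 3.18, 2.09, 1.41, 0.26, 0.81, -0.64, -0.81, -0.24, 0.47 and 0.42. Hours 1 and 2 both lay above every later hour, as they did for 4.69% of all genes. The early mean of 2.64 ± 0.49 differed from 0 in limma (adjusted p = 0.0040), a 6.22-fold higher ratio than the median gene. This call was lost without hour 1 (adjusted p = 0.10), where hour 2 alone was at 2.09, and in odd or even hours alone (adjusted p = 0.075 and 0.068). The later mean of 0.21 ± 0.25 did not pass (adjusted p = 0.54). The difference of 2.43 ± 0.55, a 5.38-fold gap with an interval from 1.22 to 3.64, ranked 16 of 5773 genes by size, with an unadjusted p of 0.0011 and an adjusted p of 0.18 in limma. It was 2.71 within odd hours and 2.14 within even hours.

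SPI1 encodes a cell wall protein anchored to the membrane that guards against weak acids. It had ratios of 0.66 at hour 1 and 2.16 at hour 2, and later ratios from -1.92 at hour 9 to 0.24 at hour 10, with a median of -0.88. Both early hours lay above all 8 later ones, and 6 of those 8 were below 0. The later mean of -0.83 ± 0.26 was lower than 0 (adjusted p = 0.024 in limma). It no longer passed without hour 5, 7, 8 or 9 (adjusted p from 0.051 to 0.063), in even hours alone (-0.47, adjusted p = 0.28), when arrays were not centred (-0.55, adjusted p = 0.11) or with hour 1 alone as early, where hour 2 joins the later set (-0.50, adjusted p = 0.28). The early mean of 1.41 ± 0.52 did not pass (adjusted p = 0.087), but did so without centring (1.74, adjusted p = 0.043), in a model with an odd-hour term (adjusted p = 0.044) and at the looser threshold of 0.1. The difference was 2.24 ± 0.58, rank 25 of 5773, with an unadjusted p of 0.0027, an adjusted p of 0.18 and an interval from 0.96 to 3.52. Within odd and even hours it was 1.86 and 2.62.

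ALD3 and ALD2 are neighbouring genes for closely related cytosolic aldehyde dehydrogenases, whose signals an array can mix. ALD3 was at 2.20 and 1.44 in hours 1 and 2 and at -0.62 to 1.22 later, with a median of 0.57. Both early hours stood above every later hour. The early mean of 1.82 ± 0.42 was higher than 0 in limma (adjusted p = 0.012), a 3.52-fold higher ratio than the median gene, and this call was lost without hour 1 (adjusted p = 0.19), in odd or even hours alone (adjusted p = 0.10 and 0.085), with hour 1 alone as early (adjusted p = 0.057) and with hours 1 to 3 as early (adjusted p = 0.095). The later mean of 0.45 ± 0.21 did not pass (adjusted p = 0.11), but did so with arrays not centred (adjusted p = 0.013), in even hours alone (adjusted p = 0.028) and when hour 9 was left out (adjusted p = 0.031). The difference was 1.36 ± 0.47, with an interval from 0.33 to 2.40, an unadjusted p of 0.015 and an adjusted p of 0.24. It was 2.04 within odd hours and 0.69 within even hours.

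ALD2 did not follow ALD3. Its even-hour ratios at hours 2, 4, 6, 8 and 10 were 1.21, 2.50, 1.92, 1.84 and 2.44. At odd hours 1, 3, 5 and 7 it was at -0.39, -0.71, -0.67 and 0.34, and hour 9, at 1.96, was the odd hour that overlapped the even ones. The odd and even means were 0.10 and 1.98, the widest such gap among the members and opposite in sign to that of MSN2. The later mean of 1.20 ± 0.41 was higher than 0 (adjusted p = 0.036 in limma). It did not pass in odd hours alone (0.23, adjusted p = 0.75) or without any of hours 4, 6, 8, 9 or 10 (adjusted p from 0.082 to 0.092). The early mean was 0.41 ± 0.82 (adjusted p = 0.80), and the difference of -0.79 ± 0.92 did not pass (adjusted p = 0.81), with an interval from -2.81 to 1.23.

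GAD1 encodes glutamate decarboxylase, which makes GABA from glutamate. It was at 2.56 and 1.56 in hours 1 and 2. Later odd hours 3, 5, 7 and 9 were at 2.86, 1.92, 1.07 and -0.77, and later even hours 4, 6, 8 and 10 were at -0.34, -0.07, -0.30 and 0.20. Hour 3 stood above both early hours, and among the even hours hour 2 stood apart from the other 4. Neither the early mean of 2.06 ± 0.76 (adjusted p = 0.086) nor the later mean of 0.57 ± 0.38 (adjusted p = 0.26) passed. The early mean passed under 6 of 28 alternatives, with adjusted p-values of 0.043 in a model with an odd-hour term, 0.048 without centring, 0.033 without hour 3, 0.041 without hours 3 and 4 and 0.0041 with hours 1 to 3 taken as early, and at the looser threshold of 0.1. The difference of 1.49 ± 0.85 did not pass (adjusted p = 0.52), and was 1.30 within odd and 1.68 within even hours.

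HSP12, a small hydrophilic protein that stabilises membranes and is widely used as a reporter of Msn2 and Msn4, stayed above 0 throughout. Its ratios from hour 1 to hour 10 were 2.16, 1.12, 1.48, 1.34, 0.38, 1.12, 1.96, 2.05, 0.95 and 3.62. The highest value was at hour 10 and the lowest at hour 5, so the early hours lay inside the later range. The later mean of 1.61 ± 0.30 was higher than 0 in limma (adjusted p = 0.0013), a 3.06-fold higher ratio than the median gene, and passed under all 28 alternatives. The early mean was almost the same at 1.64 ± 0.60 but rested on 2 arrays and did not pass (adjusted p = 0.087). Its adjusted p was 0.043 without centring, 0.023 when hour 10 was left out and 0.039 with hours 1 to 3 taken as early. The difference of 0.02 ± 0.68 had an interval from -1.46 to 1.51 (adjusted p = 0.996), wide enough to hold a gap of over 2-fold either way. Hour 1 was 0.96 above the other odd hours, and hour 2 was at -0.92 against the other even hours.

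CTT1, the cytosolic catalase that breaks down hydrogen peroxide, was at 1.72 at hour 1 and -0.00 at hour 2. Later it ran from -0.25 at hour 9 to 1.43 at hour 7, with a median of 0.27. Only hour 1 exceeded the later range. Its early mean of 0.86 ± 0.44 (adjusted p = 0.22), its later mean of 0.47 ± 0.22 (adjusted p = 0.11) and the difference of 0.39 ± 0.49 (adjusted p = 0.84, interval from -0.69 to 1.47) did not pass in limma. Without centring the later mean was 0.75 and passed in limma (adjusted p = 0.013), on a scale where the median of all genes was 0.37 rather than near 0.

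GRE1, a hydrophilin gene induced by osmotic stress, went the other way. It was at -2.18 and -1.99 in hours 1 and 2. Later it ran from -1.81 at hour 9 to -0.98 at hour 3, with a median of -1.33. All 10 values were below 0, and both early hours lay below every later hour, as they did for 7.43% of all genes. The early mean of -2.09 ± 0.26 (adjusted p = 0.00061) and the later mean of -1.33 ± 0.13 (adjusted p = 1.4e-05) were both lower than 0 in limma, ratios 4.25-fold and 2.51-fold lower than the median gene. The later call held under all 28 alternatives, and the early call was lost with odd hours alone (adjusted p = 0.055) and even hours alone (adjusted p = 0.053). The difference of -0.76 ± 0.29 had an interval from -1.40 to -0.11, an unadjusted p of 0.025 and an adjusted p of 0.30.

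**Figure D2:**
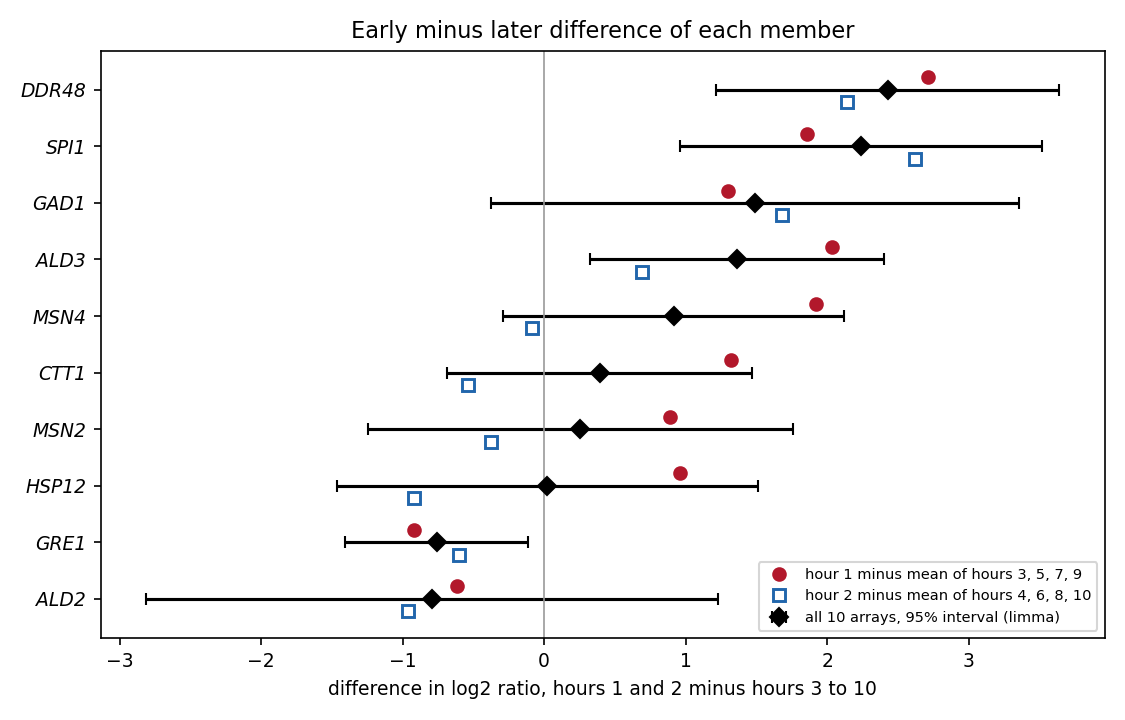
Difference in log2 ratio (horizontal axis) between hours 1 and 2 and hours 3 to 10 for each member (vertical axis). Black diamonds with bars are the limma estimate and its 95% interval over all 10 arrays, filled circles compare hour 1 with the later odd hours, and open squares compare hour 2 with the later even hours. For MSN4, CTT1, MSN2 and HSP12 the circle lies above 0 and the square below it, while for DDR48, SPI1, GAD1 and ALD3 both lie above 0.

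Across the members, DDR48, SPI1, ALD3 and GAD1 were higher early within odd and within even hours alike (4 of 10, against 26.9% of all genes). GRE1 and ALD2 were lower early in both comparisons, and the other 4 members split, with hour 1 high and hour 2 not. Both early hours lay outside the later range in DDR48, SPI1, ALD3 and GRE1 (4 of 10, against 12.1% of all genes). The exact two-sided permutation test of the difference of means, over the 45 possible choices of 2 arrays, gave an unadjusted p between 0.22 and 0.89 for the other 6 members. For these 4 it gave 0.044, the smallest value that the two-sided test as run here can give. That value follows from both early hours lying outside the later range and adds nothing to that fact. Hour 1 lay above every hour from 3 on in 6 members, against 15.5% of the 4956 genes with all 10 values, and was the highest hour of all in 5, against 14%. The median of the 8 targets was 1.94 at hour 1 and 1.33 at hour 2, and between -0.44 and 0.47 in hours 3 to 10. At hour 2 the targets at or above 1 were 6 of 8, at hour 1 they were 5, and at no later hour were they more than 3. The share of all genes at or above 1 was not counted by hour, so these counts are not set against other genes. They also depend on the spread of each array, and were not counted again on arrays scaled to equal spread. Such scaling was applied to the means of the 2 sets of hours. For all 10 members, the median of these means was then 1.37 early and 0.49 later, against 1.48 and 0.46 without scaling.

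Counted against 0, DDR48, ALD3 and MSN4 were higher and GRE1 was lower in hours 1 and 2, 3 of 10 against 7.12% of all genes and 1 against 11.5% (18.6% in either direction). In hours 3 to 10 HSP12 and ALD2 were higher and GRE1 and SPI1 lower, 2 of 10 against 19.9% and 2 against 21% (40.8% in either direction). GRE1 was thus the member called in both sets of hours. Without hour 1, GRE1 alone of the 4 early calls passed. On the deposited scale 6 members were higher and 1 lower early, and 5 higher and 1 lower later. For all genes 411 were higher and 663 lower early (726 and 391 on the deposited scale), and 1146 and 1210 later (2012 and 836). The 3 comparisons share their arrays and the yeast-form channel.

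**Figure D3:**
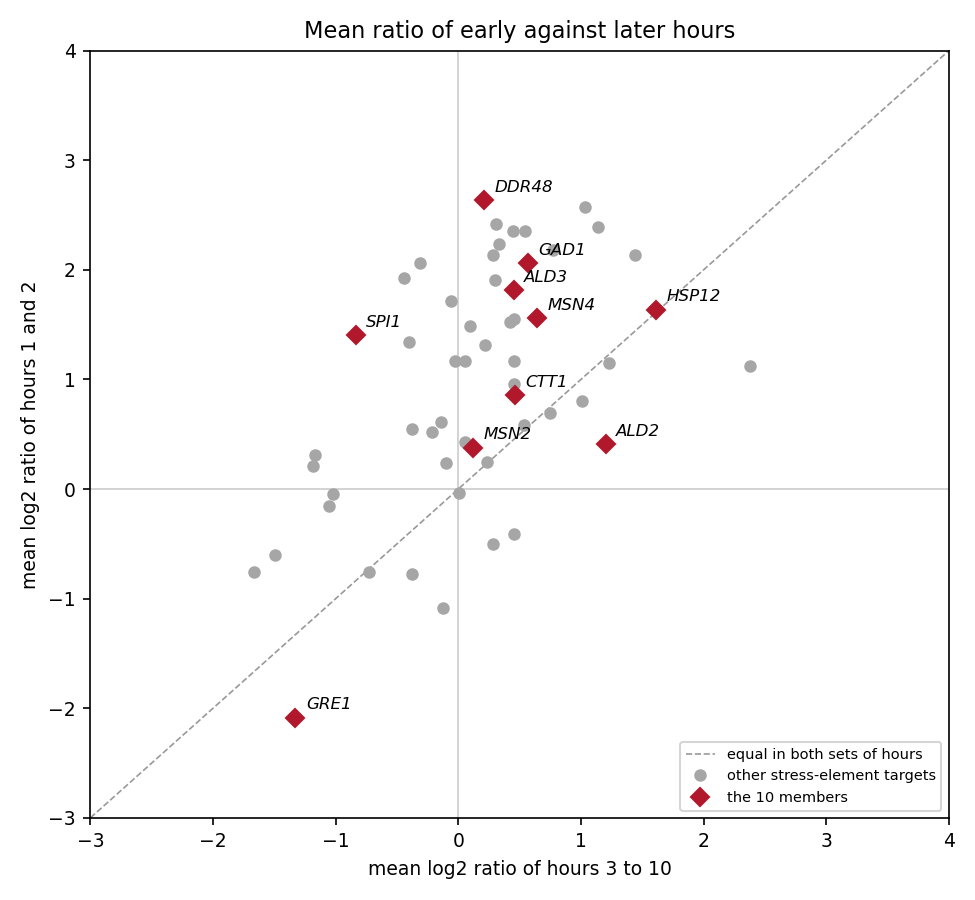
Mean log2 ratio of hours 1 and 2 (vertical axis) against that of hours 3 to 10 (horizontal axis) for the 10 members (diamonds) and 45 other targets of the stress response element (grey points), with a dashed line where both are equal. DDR48, SPI1, GAD1 and ALD3 stand well above the line, HSP12 lies on it, and ALD2 and GRE1 lie below it.

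The odd and even hours touched 3 members most. The odd mean differed from the even mean by at least 1 in MSN2 (1.50), GAD1 (1.32) and ALD2 (-1.88), as it did in 16.2% of all genes. The odd mean was the higher one in 6 of the 10 members. In a model with an odd-hour term, the adjusted p of the early minus later difference was 0.14 for DDR48 and SPI1 and 0.21 for ALD3, and no gene passed. The part of this alternation in the results was not tested.

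A wider list held 46 other genes known as targets of the stress response element, of which 45 were tested. Like the members, it was chosen with earlier results of these data known. Its median difference was 0.93, with 35 of 45 higher early, beside 48.2% of all genes, and 0 called in either direction. Against 0, 18 were higher and 0 lower in hours 1 and 2 (median 1.13), beside 7.12% and 11.5% of all genes. In hours 3 to 10, 8 were higher and 10 lower (median 0.22), shares near the 19.9% and 21% of all genes. Without hour 1 the early median was 0.61 and the median difference 0.34, against -0.01 and -0.05 for all genes. Without centring, 25 of the 45 were higher and 0 lower early, beside 726 and 391 of the 5773 genes tested. Later, 16 of the 45 were higher and 5 lower without centring, beside 2012 and 836 of the 5773, so the later shares were again near those of all genes. The smallest p for a difference within this list was that of GPD1, glycerol-3-phosphate dehydrogenase, at 1.34 early and -0.40 later (difference 1.74 ± 0.31, adjusted p = 0.16). TPS2, the trehalose phosphate phosphatase, was at 2.42 and 0.31, and GRE3, an aldose reductase, at 1.17 and -0.03, with adjusted p-values of 0.16 and 0.18 for the difference.

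Among 21 regulators that act on or alongside Msn2 and Msn4, the median difference was 0.20, with 13 higher early, beside 48.2% of all genes, and 0 called. Against 0, 0 were higher and 1 lower early, beside 7.12% and 11.5% of all genes. Later, 6 were higher and 4 lower, beside 19.9% and 21% of all genes. RIM15, a kinase that activates the stress response when nutrients run out, was at 1.92 early and -0.16 later, with a difference of 2.08 ± 1.08 (adjusted p = 0.48). That early mean joins -0.95 at hour 1 with 4.79 at hour 2. The difference passed under 1 of 28 alternatives, without hour 1 (4.95, adjusted p = 0.028 in limma), and the early mean under 2, without hour 1 and in even hours alone. In each of these the early set is hour 2 alone, so the spread comes from the later arrays and the low value at hour 1 is left out. The transcription factor GIS1 was at 1.59 and 0.64, and BMH1, whose product binds phosphorylated proteins, at -0.21 and -0.51. Neither difference passed (adjusted p = 0.63 and 0.74). The later mean of BMH1 was lower than 0 (adjusted p = 0.0043), a call lost under 3 of 28 alternatives, namely without centring, in odd hours alone and in even hours alone.

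The relatives and pathway partners of the members gave 7 of 8 higher early, beside 48.2% of all genes, with a median difference of 0.86 and 0 called. SIP18, the hydrophilin related to GRE1, was at 2.77 early (adjusted p = 0.0087 in limma, a call lost under 6 of 27 alternatives, among them without hour 1 and without hour 2) and -0.44 later (adjusted p = 0.31), on 2 early and 6 later values. It was higher early where GRE1 was lower, although its difference of 3.21 ± 0.63 did not pass (adjusted p = 0.16). SED1, the wall protein related to SPI1, was lower than 0 in both sets, at -1.33 and -2.37 (adjusted p = 0.047 and 5.8e-06), and the early call held under 10 of 28 alternatives only. The mitochondrial aldehyde dehydrogenase ALD4 was higher in both, at 3.06 and 1.92 (adjusted p = 0.00042 and 6.0e-06), as was the cytosolic ALD6, at 1.66 and 0.99 (adjusted p = 0.0017 and 0.00010). The early call of ALD6 was lost without hour 1 and in even hours alone. ALD5, at -0.03 and -0.21, passed in neither. The GABA-degrading enzymes UGA1 and UGA2, which act after GAD1, were higher in both sets, UGA1 at 1.33 and 0.65 (adjusted p = 0.046 and 0.026) and UGA2 at 1.76 and 0.66 (adjusted p = 0.014 and 0.027). The early call held under 10 of 28 alternatives for UGA1 and 25 for UGA2, and the later call under 24 and 20, and neither early call held without hour 1 (adjusted p = 0.19 and 0.29). The peroxisomal catalase CTA1 was at 0.29 and 0.95 on 8 values and did not pass (adjusted p = 0.81 and 0.057, though the later mean passed under 6 of 27 alternatives), and its difference of -0.66 was the one below 0.

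**Figure D4:**
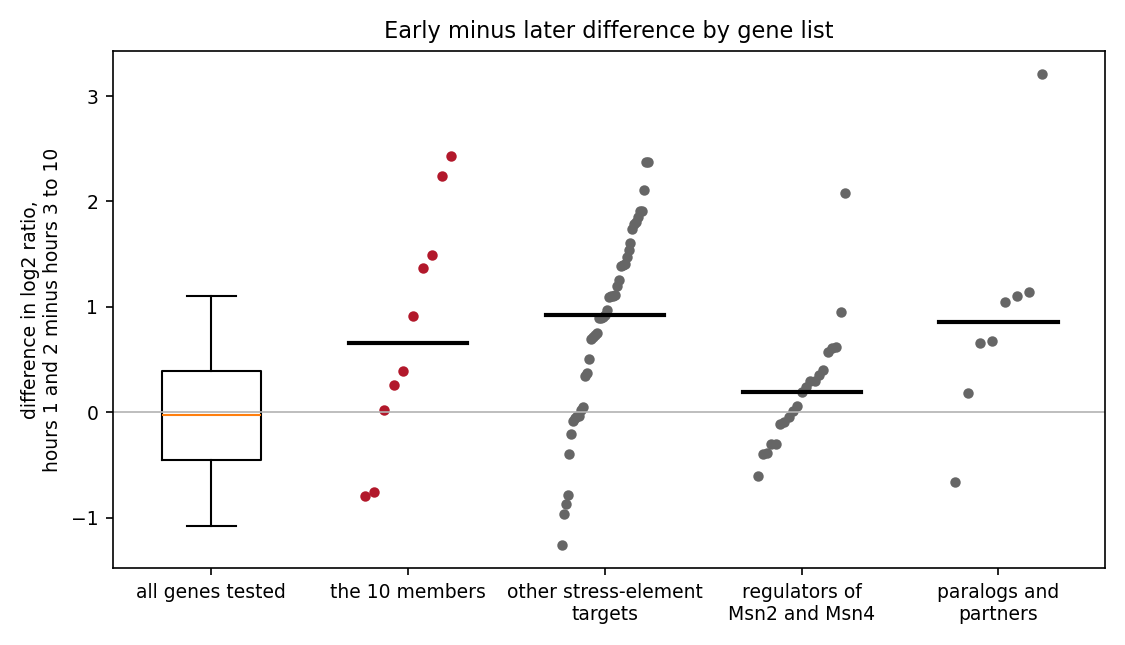
Difference in log2 ratio between hours 1 and 2 and hours 3 to 10 (vertical axis) for all 5773 genes tested (box from the first to the third quartile, line at the median, whiskers from the 5th to the 95th percentile) and for each gene of 4 lists (points, with a bar at the list's median). The medians are -0.02 for all genes, 0.65 for the 10 members, 0.93 for the other targets, 0.20 for the regulators and 0.86 for the relatives and partners.

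The profiles over the 10 arrays were also set beside those of 4266 other named genes with all values, as a description of shared shape that includes any shared array effect. Closest to MSN2 were CPS1, RMD9 and INP51, with Pearson's r of 0.97, 0.96 and 0.96, and of 0.89, 0.86 and 0.97 once the odd and even means were removed. Closest to MSN4 were MRPL49 (0.98), RSC2 (0.93) and APE1 (0.90). Closest to HSP12 were ARF2 (0.94), DAM1 (0.93) and PDR16 (0.92). No other member was among these 9 genes.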

How the data were processed

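The authors deposited, for each open reading frame, 1 log2 ratio from each of 10 arrays with 2 channels, channel 1 being filamentous form and channel 2 yeast form, per the labels. Base 2 follows from the values, since 98.4% of nonzero ratios were whole ten-thousandths within 0.02. The sources used here do not give the scanner, dyes, dye swaps, background correction, normalization or any centring, and signal over background is unknown. Every cell carries an extra seventh decimal, which was dropped, and the 3324 cells then at 0 (5.28%) were taken as missing. Array medians were subtracted. The 5773 genes tested had at least 8 of 10 values and 1 of hours 1 and 2. A mean for hours 1 and 2 and a mean for hours 3 to 10 were fitted with lmFit and eBayes of limma 3.58.1 in R 4.3.3, two-sided, with Benjamini-Hochberg adjustment over all genes and a threshold of 0.05. SE and 95% intervals are limma's, from a variance per gene pooled over both sets of hours and moderated across genes. Exact permutation tests used scipy 1.17.1. The code was tested on simulated arrays. Names came from a RefSeq R64 gene table (5792 of 6292 matched), and no sequences are shown.

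The members, gene lists and tests were chosen with earlier results of these data known. Named besides the members were the 3 genes of the target and regulator lists with the smallest adjusted p for the early minus later difference (ties by p), all relatives and partners, and the 3 genes closest in profile to MSN2, MSN4 and HSP12. Alternatives covered scaling, missing values, variance model, odd and even hours, time split, threshold and each hour left out. Where one left a single early array, that array was assumed to vary like the later ones. Their counts for the other targets were added after the data were seen.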

Additional observations from a re-analysis of the deposited data

How the results depend on the processing

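With 1 array per hour and 2 early arrays, only wide gaps could pass. No member passed for the early minus later difference under any of 28 alternatives, while the number of genes called, 0, was 3 for hour 1 against hours 2 to 10 and between 0 and 11 with 1 hour left out (11 without hour 1). The differences of GRE1, ALD3, GAD1, SPI1 and DDR48 kept their sign under all 28. That of HSP12 was -0.18 with equal spread, -0.046 with hours 1 to 3 as early and -0.044 without hours 3 and 4. With even hours alone the difference was -0.37 for MSN2, -0.088 for MSN4, -0.92 for HSP12 and -0.54 for CTT1. With 1 hour left out it ran from -0.995 to 1.51 for MSN2, -0.20 to 2.03 for MSN4, -0.50 to 0.54 for HSP12, -0.47 to 1.25 for CTT1 and -1.59 to 0.011 for ALD2, with the turned sign without hour 1 in each and, for HSP12, also without hour 4, 5, 6 or 9.

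For hours 1 and 2 against 0, the 4 members called were 7 on the deposited scale, 0 with odd hours alone, 0 with even hours alone, 2 at an adjusted p under 0.01, 7 under 0.1 and from 1 to 4 with 1 hour left out. The 1074 genes called were 190 with odd and 119 with even hours alone (fewer arrays), 468 for hour 1 alone as early, 508 at an adjusted p under 0.01 and 365 to 1116 with 1 hour left out (365 without hour 1, 528 without hour 2). The early mean of ALD2 was -0.39 with odd hours alone and with hour 1 as early, and with even hours alone MSN2 was at -0.87 and CTT1 at -0.0034. With 1 hour left out these means ran from -0.39 to 1.21, -0.87 to 1.63 and -0.0034 to 1.72. The 18 other targets called early were 11 with equal spread, 5 with odd and 0 with even hours alone, 6 at an adjusted p under 0.01 and 2 without hour 1.

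For hours 3 to 10 against 0, the 4 members called were 2 at an adjusted p under 0.01 and from 2 to 5 with 1 hour left out (2 without hour 8), and the 18 other targets called were 10 at an adjusted p under 0.01. Of all 5773 genes tested, the 2356 called in these hours were 1628 at an adjusted p under 0.01, 2067 without hour 8 and 2365 without hour 3. With even hours alone the later mean was -0.50 for MSN2, -0.13 for GAD1 and -0.052 for DDR48. That of MSN2 was -0.011 with hours 4 to 10 as later, -0.016 without hours 3 and 4 and from -0.011 to 0.29 with 1 hour left out. Where the alternative does not itself hold fewer arrays, the cause was not tested. No paired analysis was possible because each hour has 1 array and the hours carry no shared replicate numbers.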
